A study of Mus musculus with 24 samples.

Results

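The 10 genes described here encode S100 proteins, small calcium-binding proteins of the EF-hand type, and were chosen by their names with the per-library values of all 7 conditions in view: *S100a1*, *S100a4*, *S100a6*, *S100a8*, *S100a9*, *S100a10*, *S100a11*, *S100a13*, *S100a16* and *S100b*. They are 10 of the 24411 genes in the expression tables. Because their own values were in view when they were selected, those values are given as a description, and no p-value is given for them. The lists of other genes below were also chosen with earlier results of these data known. Adjusted p-values of listed genes are therefore a description too.

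RNA was sequenced from cultured astrocytes and microglia of wild-type (WT) mice and of mice carrying the SOD1G93A transgene, a mutant human *SOD1* gene used to model amyotrophic lateral sclerosis on a C57BL/6J background. Astrocytes came from pups at postnatal day 5, by immunopanning, and were kept in serum-free medium with HBEGF. They received PBS (quiescent) or 3 ng/ml IL-1α, 30 ng/ml TNFα and 400 ng/ml C1q together (activated). Microglia came from pups at postnatal days 7 to 10, by magnetic sorting for Cd11b, and were kept in serum-free medium with TGF-β2, IL-34 and cholesterol. They received PBS or 50 ng/ml lipopolysaccharide (LPS). The 7 conditions were WT quiescent, WT activated and SOD1G93A activated microglia, and quiescent and activated astrocytes of each genotype, with 3 libraries in each, 21 in all. Quiescent microglia of the transgenic line, 3 further samples, were not used here. Nothing in the labels says whether libraries of a condition came from separate animals or cultures, so the p-values below measure the spread between these libraries, which may be technical.

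S100 proteins pair into dimers that change shape when calcium binds and then grip partner proteins such as annexins, myosin and p53. Some members leave the cell and act on receptors such as TLR4 and RAGE, among them S100A8 and S100A9, which neutrophils and monocytes hold in large amounts and release as alarmins. In the brain, S100B is widely used as a marker of astrocytes, and *S100a10* has been used as a marker of a form of reactive astrocyte.

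Depth ran from 2016139 to 11570122 reads on genes per library, with a median of 5098168. Levels are given as RPM, the reads of a gene scaled to the same total of reads on genes in every library, since the tables were normalized separately; no test was run across tables. At these depths, a count of 3 reads, the limit that a count of 0 allows, was worth 0.259 to 1.49 RPM. Intervals and limits of this kind cover counting error only.

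The labelled cell types were checked against marker lists. Summed over 8 microglial markers, the 3 WT quiescent microglia libraries held 8629 to 9247 RPM, and the astrocyte libraries 122 to 296 RPM. Summed over 9 astrocyte markers, astrocyte libraries held 4068 to 6024 RPM and microglia libraries 137 to 231 RPM. The summed microglial markers were lower after LPS, at 1971 to 2171 RPM in WT libraries. Both kinds of culture also carried transcripts on a list of 9 oligodendrocyte lineage markers: 2831 to 3009 RPM in WT quiescent and 1046 to 1107 RPM in WT activated astrocytes, and 1317 to 1359 RPM in WT quiescent and 103 to 110 RPM in WT activated microglia, mostly *Cspg4* in the quiescent microglia. In bulk RNA, fewer cells of a type and less RNA per cell cannot be told apart.

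Some libraries lay further from their replicates than others, by the chi-square per degree of freedom of their read counts. SOD1G93A activated microglia replicate 3 was at 16.8 and 21.7 from its replicates, which were at 2.41 from each other, and WT activated microglia replicate 1 was at 15.05 and 13.8, against 1.65. WT quiescent astrocytes replicate 3 was at 9.45 and 6.82, against 2.08, and SOD1G93A quiescent astrocytes replicate 1 at 6.77 and 10.4, against 2.88. Over the 2263 genes that LPS changed in WT microglia, SOD1G93A activated microglia replicate 3 had moved a median of 73.7% of the way from the WT quiescent to the WT activated mean, against 94.7% and 94.0% in replicates 1 and 2. Its summed microglial markers were 3395 RPM, against 2342 and 2345 RPM in the others.

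Transcripts of sex-linked genes, chosen after their values were seen, also differed between conditions; the labels do not give the sex of the animals. The Y-linked genes *Eif2s3y*, *Ddx3y*, *Kdm5d* and *Uty* summed to 51.4 to 60.7 RPM in WT quiescent microglia, 1.77 to 4.71 RPM in WT activated microglia and 1.48 to 2.68 RPM in SOD1G93A activated microglia. In astrocytes the same sum was 106 to 151 RPM in WT quiescent and 133 to 157 RPM in WT activated libraries, against 52.7 to 75.0 and 58.1 to 64.2 RPM in the SOD1G93A libraries. *Xist*, which is expressed in female cells, was at 65.9 to 96.7 RPM in WT quiescent, 116 to 171 RPM in WT activated and 138 to 189 RPM in SOD1G93A activated microglia. In astrocytes it was at 263 to 878 RPM in WT quiescent and 428 to 524 RPM in WT activated libraries, against 1154 to 3466 and 833 to 1347 RPM in the SOD1G93A ones. A difference in sex makeup was not tested, and it cannot be told apart from LPS treatment in WT microglia or from genotype in astrocytes.

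**Figure D1:**
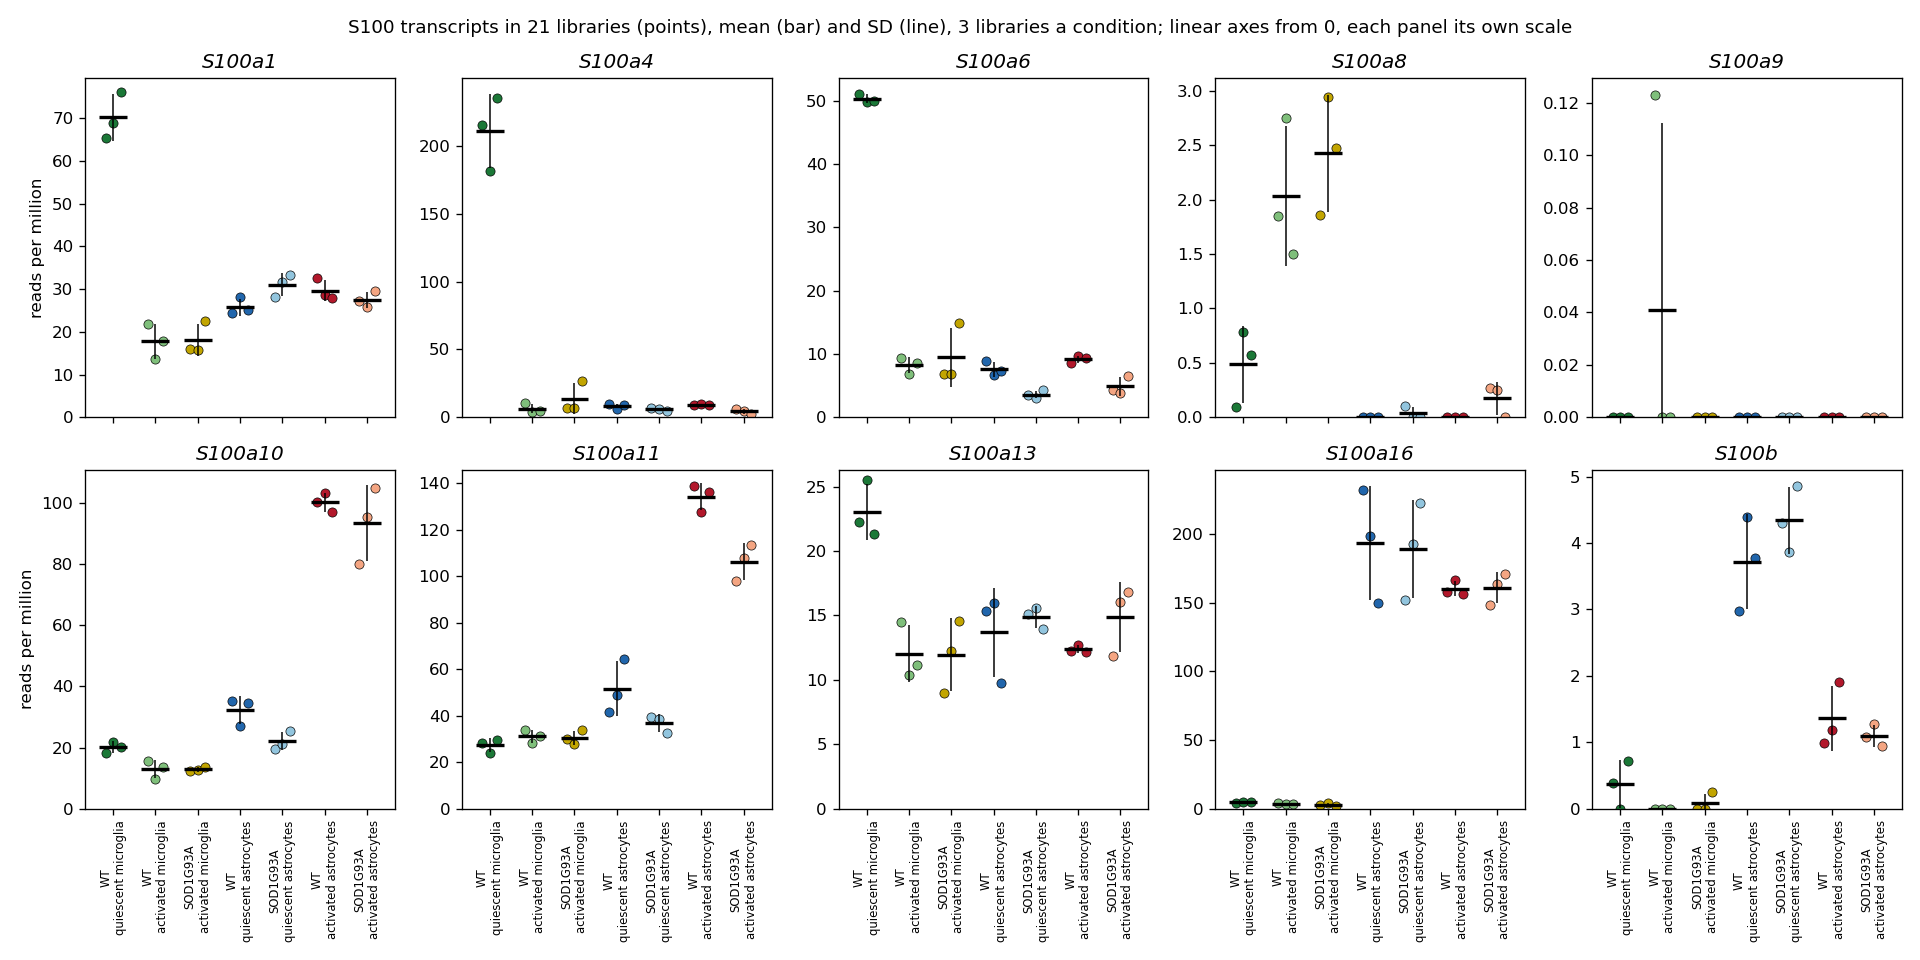
RPM (vertical axes, linear from 0, each panel on its own scale) of the 10 S100 transcripts in 7 conditions; points are libraries, bars are means and thin lines are SDs (n = 3). *S100a4*, *S100a6* and *S100a1* are highest in WT quiescent microglia, *S100a10* and *S100a11* in activated astrocytes, and *S100a16* in the astrocyte libraries.

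When quiescent, each cell type had its own leading S100 transcript. Compared per kilobase of transcript, the scale on which genes can be set side by side, *S100a4* led in WT quiescent microglia at 424 RPM per kb, 56.7% of the sum over the 10 genes. *S100a16* led in quiescent astrocytes, at 214 RPM per kb in WT and 210 RPM per kb in SOD1G93A libraries, 46.3% and 51.0% of the sum. After activation the leader was *S100a11* in both cell types: 263 RPM per kb in WT activated and 208 RPM per kb in SOD1G93A activated astrocytes, and 60.9 and 59.6 RPM per kb in WT and SOD1G93A activated microglia. In each of these conditions the leader's libraries did not overlap those of the gene in second place. Summed RPM over the 10 genes was 408 ± 30.8 (SD, n = 3) in WT quiescent microglia and 94.0 ± 16.3 after LPS, while in WT astrocytes it was 336 ± 33.4 when quiescent and 456 ± 5.41 when activated.

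The comparisons were made within each table with limma, an intensity trend and log2(normalized count + 1). A gene was tested if its mean normalized count over the 6 libraries was at least 10, and called if its Benjamini-Hochberg adjusted p was under 0.001 and its change exceeded 2-fold. Fold changes are on this log2 scale, which understates the change of low genes.

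*S100a8* and *S100a9*, whose proteins form the calprotectin dimer, were nearly absent from these cultures. *S100a8* had 1, 2 and 4 reads in the WT quiescent microglia libraries, 15, 14 and 7 in WT activated, and 11, 34 and 10 in SOD1G93A activated microglia. In RPM these counts were 0.0985 to 0.784, 1.50 to 2.75 and 1.86 to 2.94, so LPS-treated libraries lay above the quiescent ones and the genotypes overlapped. Pooled over libraries, the ratio of WT activated to quiescent microglia was 5.65, with an exact 95% interval of 2.48 to 15.0 for counting error alone. The ratio of mean RPM was lower, 4.175. The pooled value leans on WT quiescent microglia replicate 1, the deepest of its group, with 1 read. The 12 astrocyte libraries together held 3 *S100a8* reads, 1 in SOD1G93A quiescent and 2 in SOD1G93A activated astrocytes. *S100a9* had 1 read in all 21 libraries, in WT activated microglia replicate 1, so its partner transcript did not accompany *S100a8* at this depth. *S100a9* was not tested in any comparison, and *S100a8* was tested only between activated microglia, where its log2 fold change was 0.26 (SE 0.35) and the genotypes overlapped.

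Markers of neutrophils and monocytes were read beside *S100a8*, since these cells hold much of it; the mice had been perfused to clear macrophages and monocytes of the blood. Over the 11 of 12 listed genes found in the tables, they summed to 2.74 to 6.48 RPM in WT quiescent, 74.3 to 86.4 RPM in WT activated and 50.6 to 58.1 RPM in SOD1G93A activated microglia. *Mmp8*, a collagenase, made up 58.1 to 73.4 RPM of the sum in WT activated libraries. *Elane*, *Prtn3*, *Ltf* and *Retnlg* were at 0 in all 9 microglia libraries, while *Camp* had 3 to 19 reads in every LPS-treated library and 0 or 1 in the quiescent ones. *Mpo* was at 0 in the quiescent libraries and above 0 in 4 of the 6 LPS-treated ones, and *Ngp* had 2 reads, in SOD1G93A activated microglia replicate 2. *Cxcr2* was above 0 in 2 of the 3 quiescent libraries and in 1 of the 6 LPS-treated ones. The monocyte markers *Ly6c2* and *Ccr2* were above 0 in every LPS-treated library. They were also above 0 in every quiescent one, except for *Ly6c2* in WT quiescent microglia replicate 2. Markers of border-associated macrophages summed to 38.9 to 42.3 RPM in WT quiescent and 169 to 229 RPM in WT activated microglia, most of it *Ms4a7*, with *Lyve1* at 0. In WT microglia, where LPS called 20.8% of all genes, 3 of 3 tested neutrophil and monocyte markers were called higher. Of 3 tested border-associated macrophage markers, 1 was called higher. Their part in the *S100a8* counts was not tested.

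Receptors of extracellular S100 proteins were read as a list beside the alarmins. Of 6 listed receptors, 5 were tested in astrocyte activation, 2 rose and 0 fell: *Tlr4*, a receptor for S100A8 and S100A9 as well as LPS, by log2 1.38 (limma, adjusted p = 0.00047) and its co-receptor *Cd14* by 1.36 (adjusted p = 7e-05). *Ly96*, which encodes the MD-2 subunit of the TLR4 complex, was 1.63 higher but missed the limit (adjusted p = 0.0041). Mean *Cd14* was 36.3 RPM in WT quiescent and 90.7 RPM in WT activated astrocytes, against 972 and 4655 RPM in WT quiescent and activated microglia. Summed microglial markers were 122 to 225 RPM in WT quiescent and 136 to 253 RPM in WT activated astrocyte libraries, with 0 of 7 tested markers called. The part of microglial RNA in the astrocyte receptor values was not tested. In WT microglia, 3 of 5 rose with LPS and 0 fell, *Cd14* by 2.47 (limma, adjusted p = 1.3e-09), the scavenger receptor *Cd36* by 2.46 (adjusted p = 3.4e-08) and *Ly96* by 1.60 (adjusted p = 1e-05). *Tlr4* was −0.15 in the same comparison (adjusted p = 0.34), and *Ager*, the gene of RAGE, was too low to test in either. The median log2 fold change of the tested receptors was 1.36 in astrocytes and 1.60 in microglia, against 0.0139 and 0.00483 over all genes, of which 11.5% and 20.8% were called.

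**Figure D2:**
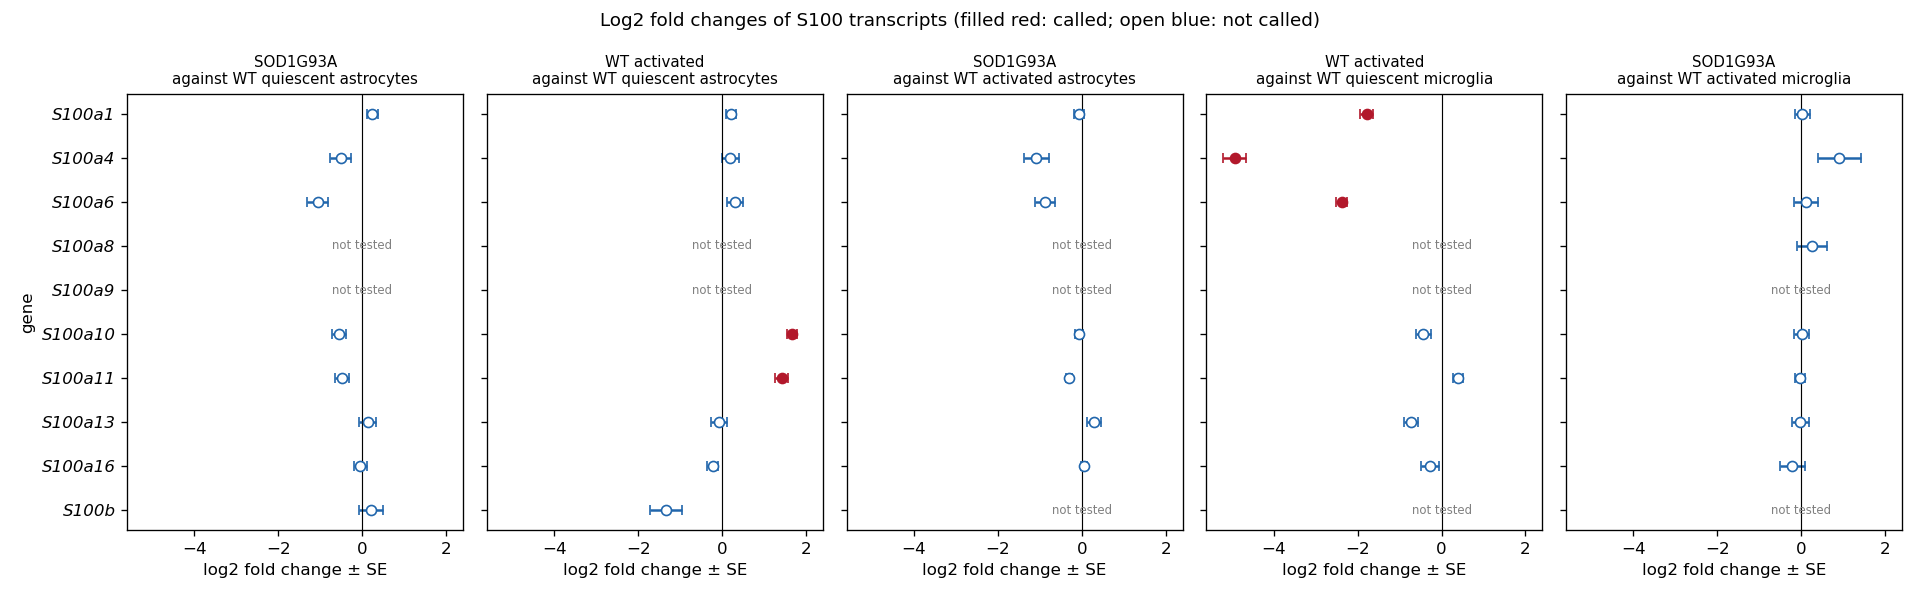
Log2 fold change (horizontal axes, ± SE) of each S100 transcript (vertical axis) in the 5 comparisons, 3 against 3 libraries each. Filled red points are called and open blue points are not; the widest change is *S100a4* in LPS-treated WT microglia, at −4.93.

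*S100a10* and *S100a11* were the S100 transcripts called in activated WT astrocytes. S100A10 differs from its relatives in that it no longer binds calcium and stands permanently ready to join annexin A2, a complex that brings plasminogen and its activator to the cell surface. *S100a10* stood at 35.2, 26.9 and 34.5 RPM in the 3 WT quiescent astrocyte libraries and at 100.4, 103.1 and 97.1 RPM in the 3 activated ones. The activated libraries all lay above the quiescent ones, and the log2 fold change was 1.67 (SE 0.12), a 3.17-fold difference. S100A11, a partner of annexin A1, works at membranes. Its transcript was at 41.7, 48.9 and 64.5 RPM in WT quiescent and 139, 128 and 136 RPM in WT activated astrocytes, again without overlap, with a log2 fold change of 1.42 (SE 0.15). Without WT quiescent astrocytes replicate 3, the highest of its group, that value was 1.61. With limma fitted without a trend, *S100a10* alone was called. Lists of endothelial and neuronal markers summed higher in the same activated libraries, without overlap, while fibroblast and pericyte markers overlapped and ependymal ones were lower. The list of 6 endothelial markers went from 8.93 to 13.4 RPM to 137 to 153 RPM, nearly all *Flt1*, with *Cldn5* at 0 throughout; panning with a lectin had been used to remove endothelial cells. Of the tested markers, 1 of 1 endothelial and 1 of 4 neuronal were called higher, and of 5 fibroblast and pericyte markers 2 were called higher and 1 lower. Their part in the *S100a10* and *S100a11* values was not tested.

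In astrocytes of the SOD1G93A mice the same genes were also higher after activation, on the RPM scale and with no test. *S100a10* had a mean of 22.1 ± 3.04 RPM (SD, n = 3) in quiescent and 93.5 ± 12.5 RPM in activated SOD1G93A astrocytes, a ratio of 4.22. *S100a11* had 36.8 ± 3.77 and 106 ± 7.86 RPM, a ratio of 2.89. Neither gene's quiescent and activated libraries overlapped. Whether these ratios differ from the WT ratios of 3.11 and 2.60 was not tested.

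Activation of WT astrocytes called 1424 of 12336 genes, 11.5%. Those called higher were 740, or 6% of the 12336 genes. Of the 8 S100 members tested, 2 were called, both higher, and the groups did not overlap for 4, against 50.9% of all genes; the members' median log2 fold change was 0.213 and that of all genes 0.0139.

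*S100b* went the other way in the same comparison. It was a low transcript here, although its protein is a customary astrocyte marker: WT quiescent astrocytes held 6, 16 and 35 reads, or 2.98, 4.40 and 3.78 RPM, and WT activated astrocytes 5, 8 and 11 reads, or 0.990, 1.18 and 1.91 RPM. The groups did not overlap, and the log2 fold change of −1.33 (SE 0.38) was not called. The ratio of pooled reads, activated over quiescent, was 0.357 (exact 95% interval 0.212 to 0.585, counting error alone). SOD1G93A astrocytes had 41, 28 and 16 reads when quiescent and 4, 5 and 2 when activated, a pooled ratio of 0.265 (interval 0.128 to 0.499). In microglia *S100b* had 9 reads in WT quiescent, 0 in WT activated and 1 in SOD1G93A activated libraries. The oligodendrocyte lineage, which also expresses *S100b*, had lower marker levels in the activated astrocyte libraries, as given above, with 3 of 8 tested markers called lower and a median of −0.531. The astrocytes had been panned negatively with the O4 antibody against cells of this lineage, and the astrocyte markers were lower too, 3 of 9 called, with a median of −0.814. Their part in the *S100b* values was not tested. *S100b* overlaps *Dip2a* on the opposite strand, and the strand setting of the counting was not among the details read here.

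*S100a16*, a widely expressed member and the highest S100 transcript of quiescent astrocytes, was not called on activation. WT quiescent astrocytes held 232, 199 and 149 RPM and WT activated ones 158, 166 and 157 RPM, which overlapped, with a log2 fold change of −0.22 (SE 0.13). Against WT quiescent microglia, at 4.82 ± 0.427 RPM (SD, n = 3), the WT quiescent astrocyte mean was 40.1-fold higher. Those microglia libraries also held 152 to 165 RPM of summed astrocyte markers, against 4893 to 6024 RPM in WT quiescent astrocytes. The part of astrocyte RNA in their *S100a16* level was not tested. *S100a1*, *S100a4*, *S100a6* and *S100a13* had log2 fold changes of 0.22, 0.20, 0.30 and −0.08 in activated WT astrocytes, and none of them was called.

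The known partners of these S100 proteins were taken as lists. Of 9 annexin-related genes, the 8 annexins listed and *Ahnak*, all 9 were tested in WT astrocyte activation, 4 rose and 0 fell, with a median log2 fold change of 1.02 against 0.0139 over all genes, of which 11.5% were called. *Anxa2*, the partner of S100A10, rose by 1.02 (limma, adjusted p = 0.00092), *Anxa5* by 1.09 (adjusted p = 0.00027), *Anxa6* by 1.27 (adjusted p = 5.8e-06) and *Anxa7* by 1.32 (adjusted p = 2.3e-06). *Anxa1*, the partner of S100A11, was 1.26 higher, with an adjusted p of 0.018. *Ahnak*, a scaffold that binds the S100A10 and annexin A2 complex, was 0.66 higher, with an adjusted p of 0.0013 and under the fold limit.

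In LPS-treated WT microglia the largest difference of an S100 transcript was that of *S100a4*, which encodes a binder of non-muscle myosin IIA known for its part in cell motility. The 3 WT quiescent libraries held 215, 182 and 236 RPM and the 3 LPS-treated ones 10.2, 3.92 and 4.71 RPM. Every treated library lay far below every quiescent one, and the log2 fold change was −4.93 (SE 0.27), a 30.6-fold difference, and −5.32 without WT activated microglia replicate 1, the highest of its group. It was in place 3 from the lowest among the 10866 genes tested. *S100a4* overlaps the annotated gene *Gm42674* on the same strand, so reads of the shared stretch could belong to either.

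*S100a6*, or calcyclin, named for its rise in dividing cells and a partner of CACYBP, followed the same course at a lower level. It stood at 51.1, 49.8 and 50.0 RPM in WT quiescent and 9.36, 6.87 and 8.56 RPM in WT activated microglia. The 2 groups were well apart, with a log2 fold change of −2.38 (SE 0.13), or 5.20-fold. *S100a1*, best known as a regulator of calcium handling in heart muscle, was at 65.4, 69.0 and 76.2 RPM before and 21.9, 13.7 and 17.8 RPM after LPS. These libraries did not overlap either, and the log2 fold change was −1.78 (SE 0.15). The microglial and oligodendrocyte lineage lists were lower in the same libraries, with 7 of 8 and 2 of 4 tested markers called lower. Of the tested endothelial markers 2 of 3 were called higher and 1 lower, and 1 of 5 fibroblast and pericyte and 2 of 8 astrocyte markers were called higher. So were 3 of 3 neutrophil and monocyte markers (median log2 fold change 4.58) and 1 of 3 border-associated macrophage markers (median 1.38). The part of these lists in the S100 values was not tested.

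The remaining members moved less with LPS, and none of these 4 was called by limma, DESeq2 or edgeR. Of all 7 members tested, 6 had an unadjusted p under 0.05, against 61.6% of all genes. *S100a13*, whose protein helps FGF1 and IL-1α leave the cell, was at 22.3, 25.5 and 21.3 RPM in WT quiescent and 14.5, 10.4 and 11.1 RPM in WT activated microglia, with a log2 fold change of −0.73 (SE 0.16). *S100a10* was lower, at −0.43 (SE 0.18), and *S100a11* higher, at 0.40 (SE 0.12), both without overlap of the normalized counts. *S100a11* did overlap on the RPM scale, at 23.9 to 29.7 RPM before and 28.2 to 33.9 RPM after LPS. *S100a16* had a log2 fold change of −0.28 (SE 0.22), with overlap of the normalized counts but not on the RPM scale, at 4.33 to 5.10 RPM before and 3.14 to 3.82 RPM after.

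LPS called 2263 of 10866 genes in WT microglia, 20.8%. Those called lower were 1153, or 10.6% of the 10866 genes. Of the 7 S100 members tested, 3 were called, all lower, and the groups did not overlap for 6, against 64.6% of all genes. The members' median log2 fold change was −0.725, and that of all genes 0.00483.

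The partner lists gave other counts in microglia, where 20.8% of all genes were called. Of the 9 annexin-related genes 1 rose, *Anxa1* at 1.19 (limma, adjusted p = 6.1e-06), and 1 fell, *Anxa3* at −1.30 (adjusted p = 1.6e-06), with a median of 0.141. *Anxa2* was at −0.19 (adjusted p = 0.092). In a list of plasminogen genes, taken because S100A10 binds plasminogen, the largest fall was that of *Plau*, urokinase, at −4.51 (limma, adjusted p = 2e-09). Among 12 other S100 targets, 2 of 11 tested rose, the larger being *Il1a*, whose product S100A13 helps to export, from 145 ± 25.3 to 25500 ± 1698 normalized counts (SD, n = 3; log2 7.46, limma, adjusted p = 2.4e-11).

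Other calcium-binding genes of the EF-hand type gave a wider frame. Of 19 listed, 15 were tested in each activation. In WT astrocytes, where 11.5% of all genes were called, 2 rose, the larger being *Efhd2* at 1.77 (limma, adjusted p = 3.8e-05), and 1 fell, *Efhd1* at −1.87 (adjusted p = 7.1e-05). In WT microglia, where 20.8% of all genes were called, 0 rose and 1 fell, *Rcn2* at −1.07 (adjusted p = 5e-05).

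For *S100a4*, *S100a6* and *S100a1* the order of levels over conditions was led by WT quiescent microglia, which lay above all other conditions without overlap. For *S100a4* the next conditions were SOD1G93A activated microglia at 13.6 ± 11.6 RPM (SD, n = 3), WT activated astrocytes at 9.27 ± 0.693, WT quiescent astrocytes at 8.27 ± 1.70, WT activated microglia at 6.28 ± 3.43, SOD1G93A quiescent astrocytes at 5.78 ± 1.11 and SOD1G93A activated astrocytes at 4.45 ± 1.95. The mean of SOD1G93A activated microglia was raised by replicate 3, at 27.0 RPM. Its other libraries, at 6.76 and 7.09 RPM, lay below the means of both WT astrocyte conditions. The ranges of neighbours among these 6 conditions overlapped. The WT quiescent microglia mean was 25.5-fold that of WT quiescent astrocytes for *S100a4*, 6.63-fold for *S100a6* and 2.72-fold for *S100a1*.

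*S100a10* and *S100a11* had their highest levels in activated astrocytes. For *S100a11* the order ran from WT activated astrocytes at 134 ± 5.78 RPM (SD, n = 3) through SOD1G93A activated astrocytes at 106 ± 7.86, WT quiescent astrocytes at 51.7 ± 11.7 and SOD1G93A quiescent astrocytes at 36.8 ± 3.77, each clear of the next, to the 3 microglia conditions at 27.3 to 31.1. SOD1G93A quiescent astrocytes overlapped WT activated microglia, the next condition down, and the microglia conditions overlapped each other. WT activated astrocytes held 7.68 times the *S100a10* level and 4.31 times the *S100a11* level of WT activated microglia. *S100a13* varied least, from 11.9 RPM in SOD1G93A activated microglia to 23.0 RPM in WT quiescent microglia, and only the latter stood clear of its neighbour.

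Between genotypes, quiescent astrocytes differed most in *S100a6*. WT libraries held 8.93, 6.60 and 7.24 RPM, from 18 to 67 reads, and SOD1G93A libraries 3.46, 3.03 and 4.25 RPM, from 14 to 33 reads. The SOD1G93A libraries all lay lower, with a log2 fold change of −1.06 (SE 0.25), place 37 from the lowest among 12271 genes. *S100a10* had −0.56 (SE 0.16) and *S100a11* −0.49 (SE 0.17), both lower in SOD1G93A without overlap, while *S100a1* was 0.24 higher (SE 0.13), also without overlap. *S100a4* was at −0.52 (SE 0.25) with overlap. *S100a13*, *S100a16* and *S100b* had values of 0.13, −0.05 and 0.20, with overlap.

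Limma called 0 of 12271 genes in that comparison (0%), where 1068 genes (8.70%) had an unadjusted p under 0.05, DESeq2 called 5 and edgeR 0. Of the 8 members tested, 0 were called by limma, DESeq2 or edgeR, 3 had an unadjusted p under 0.05, and 4 did not overlap, against 14.6% of all genes.

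Activated astrocytes showed lower *S100a4* and *S100a6* in the SOD1G93A libraries. *S100a4* was at 8.72, 10.05 and 9.04 RPM in WT and 6.18, 4.84 and 2.34 RPM in SOD1G93A libraries, the last from 5 reads. The groups did not overlap, with a log2 fold change of −1.08 (SE 0.29), which was −0.70 without SOD1G93A activated astrocytes replicate 3. *S100a6* was at 8.52, 9.60 and 9.39 RPM in WT and 4.30, 3.82 and 6.56 RPM in SOD1G93A libraries, also without overlap, at −0.87 (SE 0.24). *S100a11* was lower by a smaller step, −0.30 (SE 0.07), without overlap, while *S100a10* overlapped at −0.07 (SE 0.09).

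Limma called 78 of 12098 genes between the genotypes of activated astrocytes, 0.645%; DESeq2 called 77, edgeR 84, and limma without a trend 1. Of the 7 members tested, 0 were called by limma, DESeq2 or edgeR, 3 had an unadjusted p under 0.05, against 20.4% of all genes, and 3 did not overlap, against 24.1% of all genes. The quiescent and activated astrocyte libraries are separate samples, and both comparisons carry the difference in Y-linked transcripts given above. Summed fibroblast and pericyte markers were also lower in SOD1G93A without overlap, at 39.8 to 55.4 against 60.0 to 83.2 RPM in quiescent and 55.3 to 58.5 against 69.1 to 87.8 RPM in activated astrocytes, as were endothelial and ependymal markers in both states and neuronal markers in the activated one. Oligodendrocyte lineage markers were higher in SOD1G93A quiescent astrocytes, at 3192 to 3437 against 2831 to 3009 RPM, also without overlap. The part of these differences in the S100 values was not tested.

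In LPS-treated microglia the genotypes overlapped for every member tested. *S100a4* had the widest estimate, 0.91 (SE 0.52), from 10.2, 3.92 and 4.71 RPM in WT and 6.76, 7.09 and 27.0 RPM in SOD1G93A libraries. The high value belonged to replicate 3, and without it the log2 fold change was 0.28. *S100a6* in that library was 14.8 RPM against 6.76 and 6.83 RPM in the other SOD1G93A libraries, and its log2 fold change of 0.11 (SE 0.29) became −0.24 without it.

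Limma called 0 of 10679 genes between the genotypes of LPS-treated microglia (0%), where 930 genes (8.71%) had an unadjusted p under 0.05, DESeq2 called 3 and edgeR 0. Of the 8 members tested, 0 were called by limma, DESeq2 or edgeR, 0 had an unadjusted p under 0.05, and 0 were without overlap, against 18.2% of all genes. Of the 52 genes of the annexin, receptor, target, plasminogen and EF-hand lists together, limma, DESeq2 and edgeR called 0 in each genotype comparison: 42, 45 and 44 were tested in quiescent astrocytes, activated astrocytes and LPS-treated microglia, and 5, 15 and 3 had an unadjusted p under 0.05, against 8.70%, 20.4% and 8.71% of all genes.

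The other S100 genes added little RNA. *S100a3* had 17 reads in WT quiescent and 12 in SOD1G93A quiescent astrocytes, 0 and 1 after activation. Over all 21 libraries, *S100a7a* had 3 reads, *S100a14* 1, and *S100a5*, *S100g* and *S100z* 0. None of these 6 genes was tested in any comparison.

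Genes whose RPM followed each member most closely were found by Pearson's r of log2(RPM + 1), as a description; the libraries share conditions and depth, so r is not evidence of a link. Over 21 libraries and 9923 genes searched, *S100a10* was most like *Dhrs1* (r = 0.988), *Cd151* (0.984) and *Tnfrsf12a* (0.981), and *S100a11* most like *S1pr3* (0.983). *S100a16* was most like *Dzip1*, *Jam3* and *Schip1*, each at 0.997. *S100a4* was most like *Hpgd* (0.959), and *S100a6* had *S100a4* in the third place (0.937), the only member found among another's nearest 3. Within the 9 microglia libraries, *S100a4* was most like *Nap1l1* (0.999), *S100a6* most like *Kpna2* (0.998) and *S100a1* most like *Pebp1* (0.997). Within the 12 astrocyte libraries, *S100a6* was most like the Y-linked *Eif2s3y* (0.889).

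Of the 10 genes, 9 lie on chromosome 3 in a stretch of 3.05 Mb, chr3:90511034-93564643 (GRCm38), which holds 14 S100a genes; *S100b* is alone at chr10:76253853-76261159. The stretch has a proximal group and a distal pair. *S100a11* at chr3:93520488-93526287 and *S100a10* at chr3:93555080-93564643, the genes called higher in activated astrocytes, are the distal pair, 28792 bases apart and on the same strand. *S100a1*, *S100a4* and *S100a6*, called lower in LPS-treated microglia, are in the proximal group, where *S100a4* and *S100a6* are 6836 bases apart. *S100a8* and *S100a9* are close neighbours too, 22596 bases apart on opposite strands, and 2.82 Mb separate *S100a9* from *S100a11*. A processed pseudogene of *S100a11* is annotated on chromosome 12 and is not in the expression tables.

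**Figure D3:**
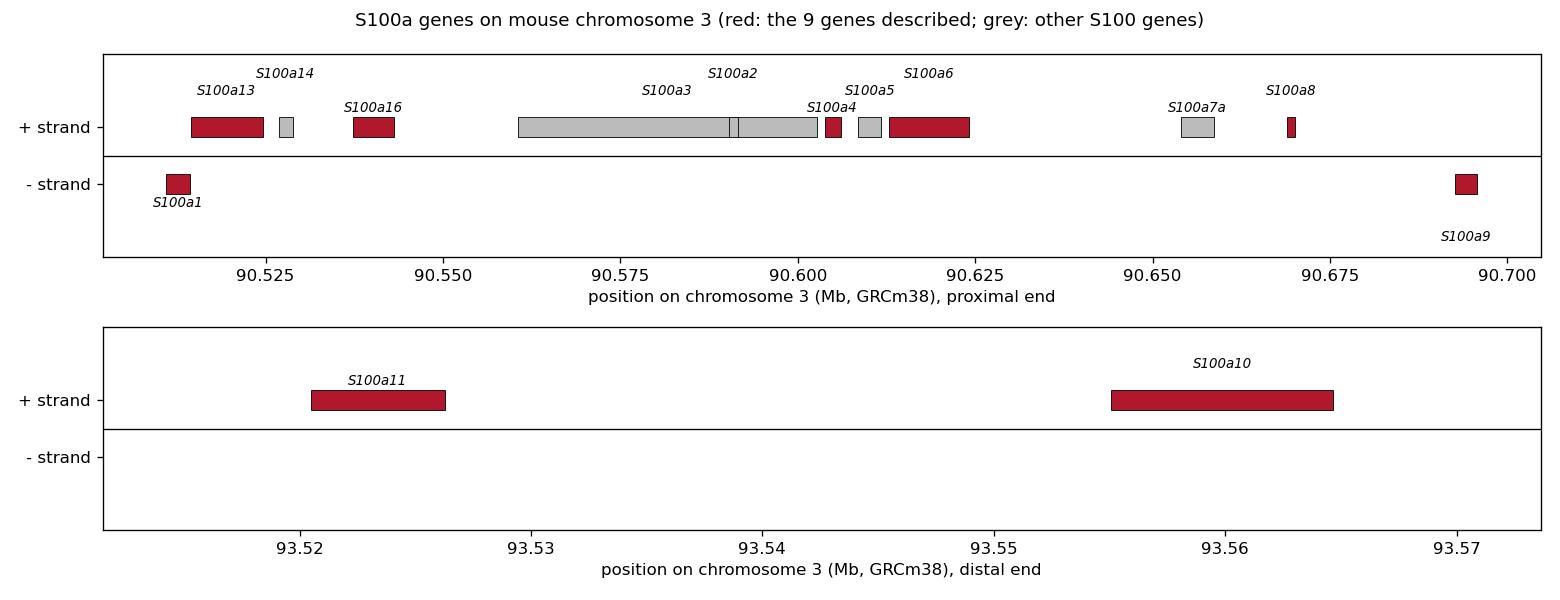
Positions (horizontal axes, Mb on chromosome 3, GRCm38; each panel on its own scale) of the S100a genes, drawn on their strands. Red boxes are genes described here and grey boxes are other S100 genes; *S100a11* and *S100a10* lie 2.82 Mb beyond the rest.

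*S100a1* and *S100a13* start head to head on opposite strands with 42 bases between the genes, and their promoter windows share 204 bases, chr3:90514281-90514484. In WT activated against quiescent microglia, where both were lower without overlap, the log2 fold changes were −1.78 and −0.73, and in the WT astrocyte comparison 0.22 and −0.08, neither of them called. Whether the paired genes differ in response was not tested.

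Promoter windows of 300 bases, from RefSeq on GRCm38.p6, were matched for 9 of the 10 genes, *S100a16* with 2 windows; *S100a10* was not matched. Both strands were searched for letters bound by factors that inflammatory signals use: AP-1 (TGANTCA), NF-kB (GGANTTTCC), C/EBP (TTGCNNAA) and STAT (TTCNNNGAA). AP-1 letters are in 7.81% of all 32851 windows, NF-kB letters in 1.25%, C/EBP letters in 10.8% and STAT letters in 8.3%. The window of *S100a11*, shown because that gene was called in activated astrocytes, holds 2 AP-1 matches, at chr3:93520360-93520366 and chr3:93520458-93520464. The second window of *S100a16* holds an AP-1 match and that of *S100a9* a C/EBP match. The windows of *S100a4* and *S100a6*, shown because these genes had the 2 lowest log2 fold changes of members in LPS-treated microglia, hold none of these letters, and neither does that of *S100a1*, also called lower there, which says nothing of the factors themselves. Each sequence below runs 5′ to 3′ on the strand of its gene (+ for all 3), at chr3:93520246-93520545, chr3:90603520-90603819 and chr3:90612644-90612943 in turn, with the AP-1 letters in capitals.
S100a11: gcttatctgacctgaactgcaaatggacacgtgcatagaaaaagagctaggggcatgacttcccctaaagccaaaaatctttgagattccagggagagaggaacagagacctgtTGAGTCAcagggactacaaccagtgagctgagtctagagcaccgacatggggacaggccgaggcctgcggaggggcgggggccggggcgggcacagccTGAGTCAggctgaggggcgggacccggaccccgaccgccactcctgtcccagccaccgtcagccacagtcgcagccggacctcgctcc
S100a4: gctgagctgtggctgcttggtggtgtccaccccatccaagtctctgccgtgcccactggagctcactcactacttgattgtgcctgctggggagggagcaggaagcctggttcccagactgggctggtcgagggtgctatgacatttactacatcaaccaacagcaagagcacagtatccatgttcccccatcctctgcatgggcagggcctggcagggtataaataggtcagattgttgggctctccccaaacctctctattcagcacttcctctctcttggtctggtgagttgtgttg
S100a6: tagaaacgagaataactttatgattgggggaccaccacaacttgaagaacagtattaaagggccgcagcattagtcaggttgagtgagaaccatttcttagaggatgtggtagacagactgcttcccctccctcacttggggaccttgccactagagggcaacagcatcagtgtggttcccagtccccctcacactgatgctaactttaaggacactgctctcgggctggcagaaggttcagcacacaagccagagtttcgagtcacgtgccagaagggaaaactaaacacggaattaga
The *S100a11* window is 61.7% G and C with 15 CG pairs, against 55.3% and 2 pairs for *S100a4* and 49.3% and 6 pairs for *S100a6*.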

How the data were processed

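Of the 24 RNA sequencing samples of the series, 21 were analysed and 3 were not analysed here. Per the labels and the study's methods, the authors made strand-specific poly(A) libraries, aligned paired-end reads to mm10 with STAR, counted them with RSEM and compared groups with DESeq2; the annotation and the strand setting of the counting were not among the details read here; the paper points to pipeline options kept online, which were not read. The values the authors deposited are a signal, normalized counts, in 6 tables. The authors' other columns (mean of normalized counts, log2 fold change, its standard error, test statistic, p-value, adjusted p-value) were not used.

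Dividing by the step between values, fitted in each library, gave whole reads for 100% of values (tolerance 0.01), and RPM was computed from these. Members were matched by gene symbol. They and the gene lists were chosen with earlier results of these data known. Each of 5 comparisons was fitted within its own table with limma 3.58.1 in R 4.3.3 on log2(normalized count + 1), with an intensity trend, for genes with a mean of at least 10; genes with an adjusted p under 0.001 and more than 2-fold were called. On the recovered reads, DESeq2 1.42.0, without the filter on the mean, called 5, 1522, 77, 2398 and 3 genes and edgeR 4.0.16 called 0, 1477, 84, 2357 and 0, in the order quiescent astrocyte genotype, WT astrocyte activation, activated astrocyte genotype, WT microglia activation and activated microglia genotype. The scripts were tested on simulated data. Named genes were all 10 members, the called gene with the largest rise and the largest fall of each list in each comparison, any gene of the receptor, annexin and other S100 lists, and the genes most like each member (up to 3) among those with a mean of at least 10 RPM. Marker genes with the highest level or at 0, and sex-linked genes, were named after their values were seen. The marker lists were of microglia, astrocytes, oligodendrocyte lineage, neurons, endothelial cells, fibroblasts and pericytes, neutrophils and monocytes, border-associated macrophages, and ependymal cells. Positions are from GENCODE M21 (23376 of 24411 symbols matched, 95.8%), and levels per kb use the median length of protein-coding transcripts. Exact intervals are Clopper-Pearson. Libraries of a condition were checked against each other for duplicates; chi-square per degree of freedom was 1.50 to 21.7 over 21 pairs. Alternatives covered pseudocount, filter, scaling, test, threshold, replicate block and each library left out.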

Additional observations from a re-analysis of the deposited data

Results flagged for a closer look

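The response to activation pointed opposite ways in WT microglia and WT astrocytes, without overlap of the normalized counts in either cell type, for 2 of the 7 members tested in both, against 1081 of 10262 genes (10.5%). *S100a4* (−4.93 and 0.20) and *S100a6* (−2.38 and 0.30) also had opposite signs, but their astrocyte libraries overlapped. *S100a1* was lower in every LPS-treated microglia library and higher in every activated astrocyte library than in any quiescent library of its cell type, as normalized counts, and the log2 fold change in microglia minus that in astrocytes was −2.00. On the RPM scale the astrocyte libraries overlapped, at 24.3 to 28.0 RPM before and 27.8 to 32.5 RPM after activation, and in SOD1G93A astrocytes the ratio of activated to quiescent was 0.884, the other direction, with overlap. The WT astrocyte difference of 0.22 was not called. *S100a10* was likewise lower in every treated microglia library and higher in every activated astrocyte library, with a difference of −2.10. Neither difference was tested, and the cell types received different agents.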

How the results depend on the processing

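Of 38 log2 fold changes of S100 members, recomputed to 606 values under the alternatives, 602 stayed within the spread between replicates and 4 moved beyond it. Much of this count was set in advance. The filters, the fit without a trend and the replicate block cannot change a log2 fold change. Leaving out a library can shift a group mean by only part of that library's deviation. At 2 decimals the sign was opposite in 17 values of 9 results, all with a value of 0.13 or less in size, and 6 more values were 0. The number of members called was 2 in WT astrocyte activation, 1 (*S100a10*) with limma without a trend and 3 (with *S100b*) at an adjusted p under 0.05 and more than 2-fold (1758 of 12336 over all genes); the cause was not tested. It was 0 between activated astrocyte genotypes, 1 at an adjusted p under 0.05 and more than 2-fold (123 of 12098 over all genes) and 3 at an adjusted p under 0.05 at any fold (879), and 3 in WT microglia activation, 5 at that last limit (6185 of 10866), which follows from the looser limits. Leaving out each library gave 0, 2, 0, 3 and 0 members called in the 5 comparisons, the lowest and the highest alike. With the replicate number as a block the counts were also 0, 2, 0, 3 and 0. Same-numbered libraries had correlations of deviations from −0.436 to 0.0587, so the numbers themselves showed no positive pairing. The lowest values, −0.4 and −0.436, were those of replicates 1 and 3 between the quiescent astrocyte genotypes. Pairing or a shared batch between libraries of different numbers was not tested. Requiring a count of 10 in every library left *S100b* untested in WT astrocyte activation and *S100a8* untested between activated microglia. No scaling moved the median of all genes by over 0.1. Depth limits *S100a8*, *S100a9* and *S100b* most, whose libraries held 0 to 41 reads.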
